A study of Mus musculus with 12 samples.

Results

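The tubulin genes and their closest regulators were followed in cardiomyocytes of dystrophic mouse hearts. Of 18530 genes in the deposited table, 10 were taken by symbol. They are the β-tubulin genes Tubb6, Tubb5, Tubb2a and Tubb4b, the α-tubulin genes Tuba1a, Tuba1b and Tuba4a, the enzyme genes Vash1 and Ttl, and Map4, which encodes a microtubule-associated protein. All 10 were above 1 TPM (a transcript level corrected for gene length and library total) in each of the 12 libraries, so the filter on low values removed none of them.

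Microtubules are polymers of α- and β-tubulin dimers, and vertebrates encode each subunit in several genes, the isotypes. Most α-tubulins are made with a terminal tyrosine, which vasohibins such as VASH1 cut off and tubulin tyrosine ligase (TTL) puts back. Dense and detyrosinated microtubules stiffen heart and skeletal muscle cells, pass stretch on to NADPH oxidase 2, and have been described in dystrophin-deficient muscle, where the isotype Tubb6 has been linked to disorganised microtubules.

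The libraries came from cardiomyocytes isolated from hearts of mice that all carry the mdx allele, the dystrophin (Dmd) mutation that models Duchenne muscular dystrophy. The 4 groups of 3 libraries were mdx:Utrn+/- with PB1046, mdx:Utrn+/- with saline, mdx with PB1046 and mdx with saline. The mdx:Utrn+/- mice have in addition lost a copy of Utrn, whose product utrophin can partly replace dystrophin, and PB1046 is a long-acting analog of vasoactive intestinal peptide. Injections ran from week 4 to week 12 of age, on alternate days, and hearts were taken in week 14; the labels give the PB1046 groups the high dose, and the protocol names 0.75 and 1.5 mg/kg. No wild-type heart is among these samples, so every comparison is between dystrophic groups. The labels do not say that each library is a mouse of its own, and p-values measure the spread between these libraries only.

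Libraries held 7234100 to 25458194 reads. The 10 cardiomyocyte markers, Myl2, Myl3 and Tnni3 the most abundant, summed to 93030 to 129300 TPM and were all above 0 in every library. All 12 endothelial, 12 macrophage, 10 fibroblast, 9 smooth muscle and pericyte and 10 cell cycle markers were also above 0 in every library. Endothelial markers summed to 388 to 1363 TPM in mdx:Utrn+/- PB1046, 315 to 489 in mdx:Utrn+/- saline, 284 to 1797 in mdx PB1046 and 445 to 979 in mdx saline. Utrn averaged 6.84 ± 2.82 TPM in mdx:Utrn+/- PB1046 and 4.97 ± 1.51 in mdx:Utrn+/- saline, against 13.8 ± 6.71 in mdx PB1046 and 9.82 ± 1.29 in mdx saline (SD, n = 3 each). In bulk RNA, fewer cells of a type and less RNA per cell cannot be told apart.

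By deposited TPM, Tuba4a and Tubb4b were the main tubulin transcripts of these cells. Over the 12 libraries Tuba4a averaged 561 TPM (range 437 to 662) and Tubb4b 341 TPM (275 to 417), and the lowest Tuba4a value lay above the highest Tubb4b value. Tuba1b followed at 122 TPM (89.5 to 177), below every Tubb4b value. Then came Map4 at 83.5 TPM (62.0 to 121.5), Tuba1a at 80.9 TPM (41.7 to 168) and Tubb5 at 65.4 TPM (42.3 to 122). These neighbours overlapped: Map4 was above Tuba1a in 6 of 12 libraries, and Tuba1a above Tubb5 in 10 of 12. Tubb6, the isotype linked to dystrophic muscle, stood at 24.9 TPM (14.6 to 33.6), below every Tubb5 value, and beside Tubb2a at 23.4 TPM (11.9 to 43.4). The enzymes were the scarcest, with Ttl at 13.8 TPM (8.82 to 22.0) and Vash1 at 12.8 TPM (4.18 to 30.5), and Ttl was above Vash1 in 7 of 12 libraries.

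**Figure D1:**
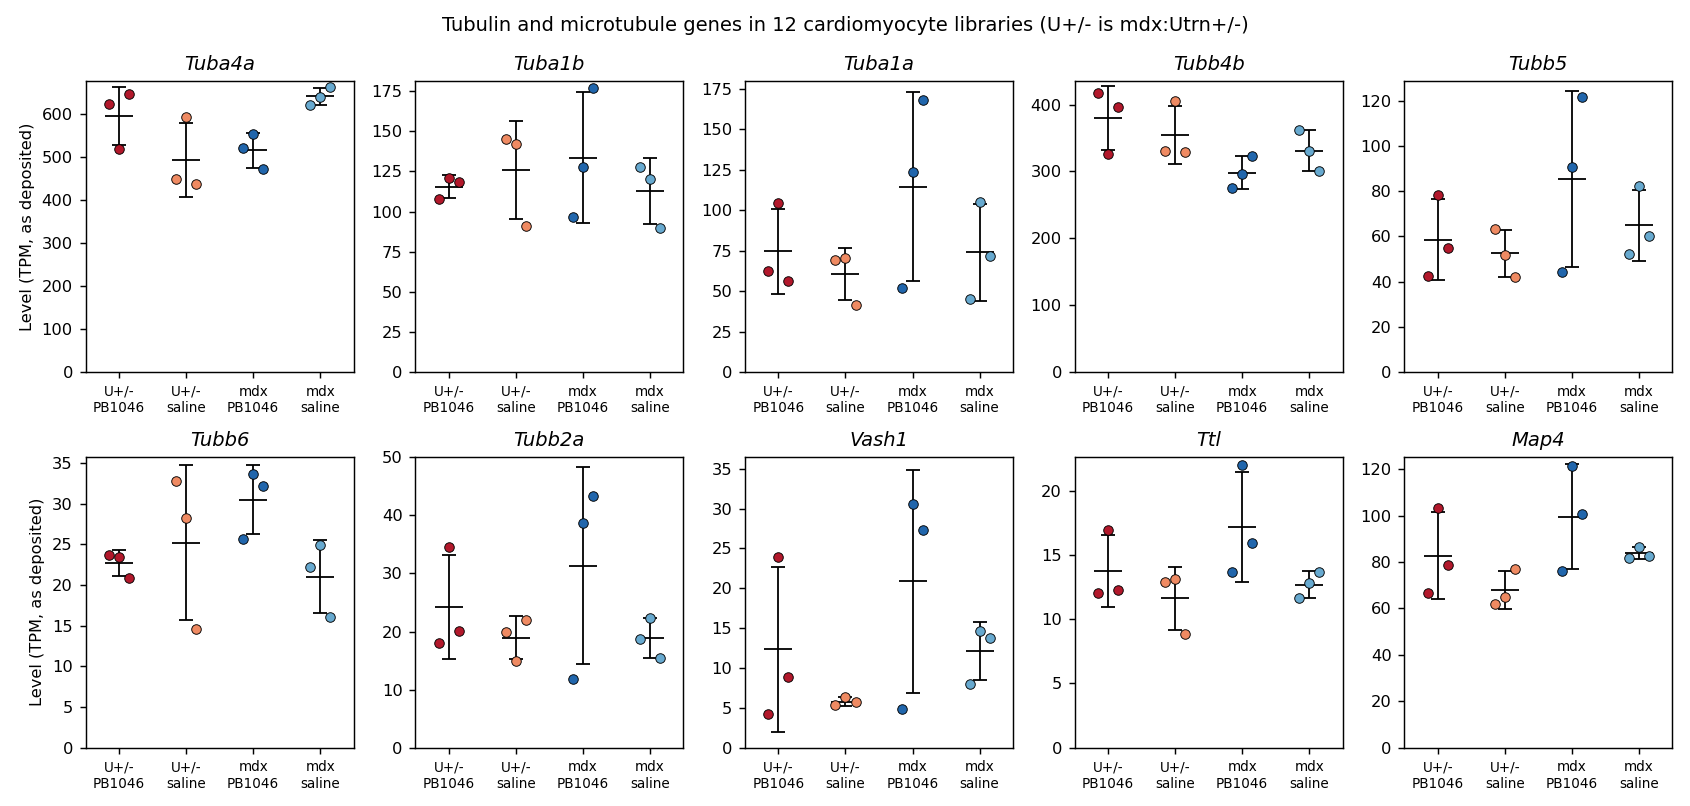
Level of each of the 10 genes in TPM as deposited (vertical axes, from 0) by group (horizontal axes, where U+/- is mdx:Utrn+/-); points are libraries 1 to 3 of a group and bars show mean ± SD. Tuba4a and Tubb4b have the highest levels, and Vash1 runs from 4.18 to 30.5 TPM.

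The α-tubulin genes differ in the codon that ends the protein, which decides whether the protein is made with a terminal tyrosine. The last 30 coding bases of Tuba1b, of Tuba4a and of Tuba8, the second most abundant α gene, are shown for that reason. They were read from the GENCODE M21 annotation of GRCm38 (mm10), 5′ to 3′ on the coding strand, with the last codon before the stop in capitals.
Tuba1b (chr15:98931582-98931611, minus strand): gagggggaggaagaaggagaggagTACtaa
Tuba4a (chr1:75215622-75215651, minus strand): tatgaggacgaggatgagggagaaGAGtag
Tuba8 (chr6:121226050-121226079, plus strand): gaagaagagaatgagggggaggaaTTTtaa
Tuba1a and Tuba1b end in a tyrosine codon. Tuba4a ends in a glutamate codon, and its product is made without the tyrosine, while Tuba8 ends in a phenylalanine codon. Over the whole coding sequence Tuba1a and Tuba1b were 98.3% identical and Tuba1a and Tuba4a 85.3%.

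By deposited TPM, most α-tubulin transcripts were therefore assigned to genes without a tyrosine codon at the end. Tuba4a made up 54.6% of all α-tubulin TPM on average (46.3% to 61.9% over the 12 libraries), Tuba8 17.1% to 28.3%, Tuba1b 12.0% (8.12% to 17.4%) and Tuba1a 7.86% (4.52% to 16.5%). Tuba1c, a further tyrosine-ending gene, averaged 25.3 TPM, and Tuba3b 0.301 TPM. The share from genes that end in a tyrosine codon (Tuba1a, Tuba1b, Tuba1c and Tuba3b) was 17.8%, 24.1% and 18.1% in mdx:Utrn+/- PB1046 libraries 1 to 3 and 28.2%, 22.6% and 19.6% in mdx:Utrn+/- saline. It was 18.7%, 25.7% and 36.6% in mdx PB1046 and 19.4%, 21.8% and 16% in mdx saline. The groups overlapped in this share, and the highest value, in mdx PB1046 library 3, stood apart from the other libraries of its group.

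In deposited TPM, a single gene dominated the β-tubulin transcripts. Tubb4b gave 74.1% of β-tubulin TPM on average (60.9% to 82.3%), Tubb5 14.1% (8.43% to 22.9%), Tubb6 5.40% (3.55% to 7.28%) and Tubb2a 5.0% (2.95% to 8.22%). Tubb1, Tubb2b, Tubb3 and Tubb4a together gave 1.40% (0.475% to 4.13%). By group, Tubb6 held 4.59% ± 0.333 of β-tubulin TPM in mdx:Utrn+/- PB1046, 5.47% ± 1.87 in mdx:Utrn+/- saline, 6.78% ± 0.621 in mdx PB1046 and 4.74% ± 0.630 in mdx saline (SD, n = 3 each). Its 3 mdx PB1046 shares, 6.06% to 7.16%, were above the 3 mdx saline shares, 4.07% to 5.31%. They were also above the 3 mdx:Utrn+/- PB1046 shares, 4.22% to 4.86%, while the mdx:Utrn+/- saline shares ran from 3.55% to 7.28%. No test was run on the shares. Tubb4b held its smallest shares, 60.9% and 63.0%, in libraries 3 and 2 of mdx PB1046, in which Tubb5 held 22.9% and 19.3%. All α-tubulin TPM exceeded all β-tubulin TPM 1.92-fold to 2.79-fold.

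**Figure D2:**
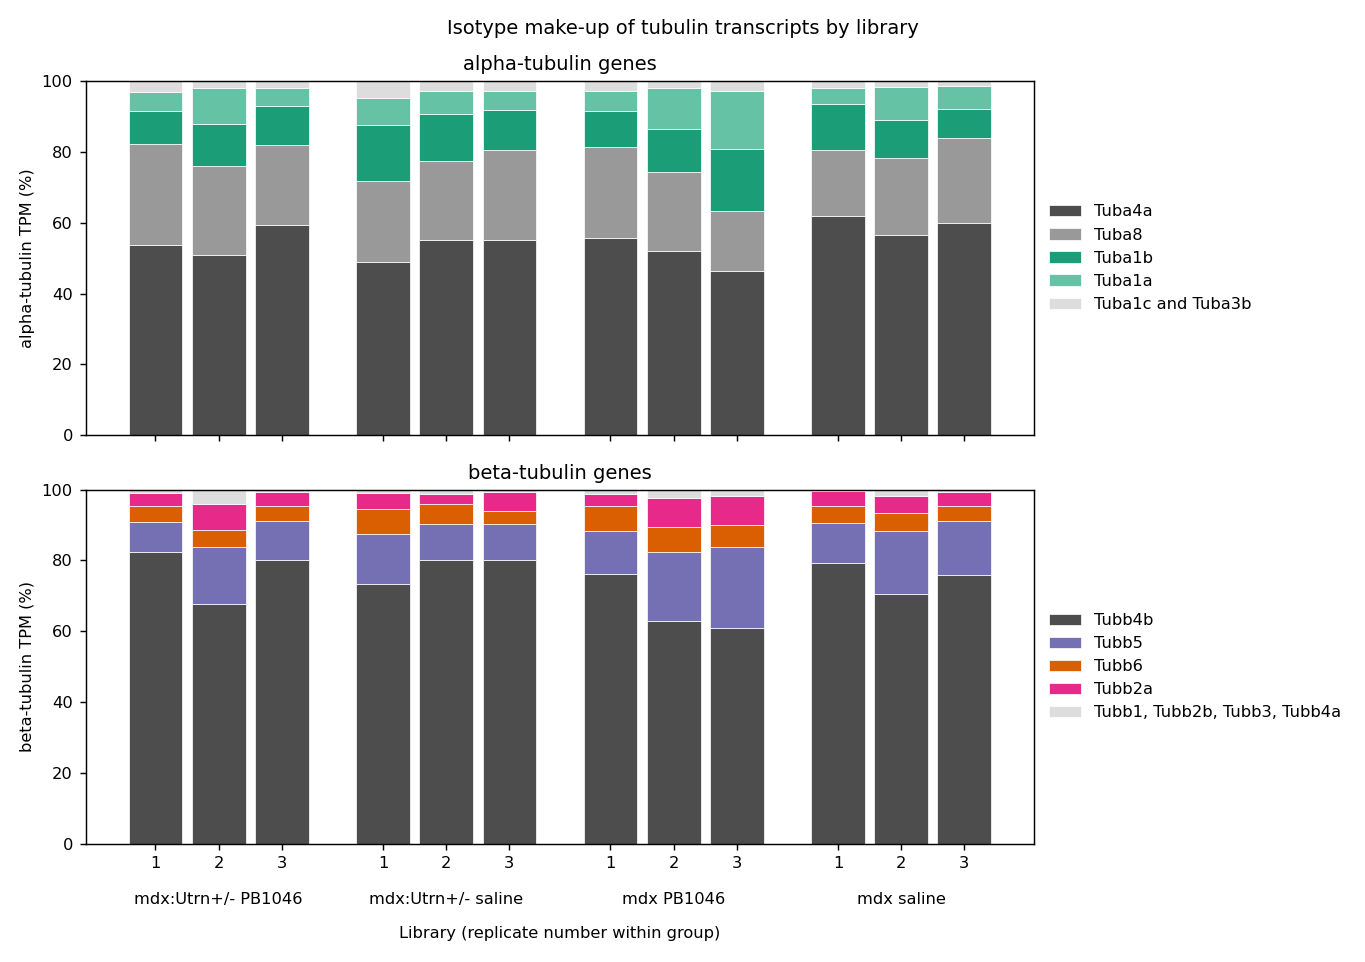
Share of each gene in the summed α-tubulin TPM (upper panel) and β-tubulin TPM (lower panel) of each library, in percent; each bar is a library, grouped as mdx:Utrn+/- PB1046, mdx:Utrn+/- saline, mdx PB1046 and mdx saline. Tuba4a holds 46.3% to 61.9% of the α total and Tubb4b 60.9% to 82.3% of the β total.

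The β-tubulins encoded by the 3 genes below share an alanine codon at the end and differ in the acidic tail before it, the stretch in which isotypes vary most. They are shown with that last codon in capitals, from the same annotation.
Tubb5 (chr17:35834982-35835011, minus strand): ttcggagaggaggcagaagaggagGCCtaa
Tubb2a (chr13:34074468-34074497, minus strand): gaggaggaggagggtgaagatgagGCTtga
Tubb4b (chr2:25222308-25222337, minus strand): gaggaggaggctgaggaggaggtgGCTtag
Some of these genes have close copies, which limits how surely reads were given to them. Of all stretches of 50 bases of the transcript, 73.8% in Tuba1b and 72.9% in Tuba1a also occurred in another gene, mostly Tuba1c, as did 50.9% in Tubb4b (mostly the pseudogene Tubb4b-ps1) and 49.6% in Tubb2a (mostly Tubb2b). For Tuba4a this was 1.1% and for Tubb5 0.1%, and for Tubb6, Vash1, Ttl and Map4 it was 0. How reads with several matches were counted is not given in the sources used here, so levels of Tuba1a, Tuba1b, Tubb4b and Tubb2a are uncertain. The order of the genes, the isotype shares and the share of tyrosine-ending genes are uncertain with them. Leaving such reads out would lower Tuba1a and Tuba1b far more than Tuba4a.

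No gene passed the threshold for an effect of PB1046 or of genotype. With limma on scaled log2 values, Benjamini-Hochberg adjusted p was below 0.05 for 0 of 12798 genes (0%) in each of the 7 contrasts, and limma-voom on reads likewise called 0. At an unadjusted p below 0.05 there were 257 genes (2.01%) for PB1046 against saline in mdx:Utrn+/- and 406 (3.17%) in mdx. For mdx:Utrn+/- against mdx there were 214 (1.67%) under PB1046 and 507 (3.96%) under saline, and 285 (2.23%) for the difference of the PB1046 effect between genotypes. Averaged over the other factor there were 328 (2.56%) for PB1046 and 440 (3.44%) for genotype. Among the 10 genes only Tubb4b was below 0.05 unadjusted, in both genotype contrasts that include the PB1046 groups. The values of single genes below are therefore descriptions, given with their intervals. In the authors' deposited table, too, the false discovery rate was below 0.05 for 0 of 18530 genes in each of its 6 group comparisons.

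Tubb4b, the main β-tubulin, had 417, 327 and 397 TPM in mdx:Utrn+/- PB1046 libraries 1 to 3, against 275, 296 and 324 TPM in mdx PB1046. The lowest mdx:Utrn+/- library was just above the highest mdx library, and the scaled values of the groups overlapped. The log2 difference of scaled levels was 0.57 (SE 0.22, 95% interval 0.09 to 1.06, limma adjusted p = 1). All 10 cardiomyocyte markers were higher in the same contrast (median log2 difference 0.31, 0 called), and their part in the Tubb4b values was not tested. Under saline Tubb4b had 330.2, 405 and 329 TPM in mdx:Utrn+/- and 362, 330.4 and 300.3 TPM in mdx, with a log2 difference of 0.34 (interval -0.14 to 0.83). Averaged over treatments the genotype difference was 0.46 (interval 0.11 to 0.80, limma adjusted p = 0.854). In the authors' deposited table the log2 difference of mdx:Utrn+/- PB1046 minus mdx PB1046 was 0.61 with an unadjusted p-value of 0.0326, in a comparison in which 2.7% of genes were below 0.05.

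Tuba4a, the main α-tubulin, had 519, 553 and 471 TPM in mdx PB1046 libraries 1 to 3, against 621, 638 and 662 TPM in mdx saline. The groups did not overlap, on the deposited or on the scaled values, and every PB1046 library was lower. The log2 difference was -0.47 (SE 0.24, interval -0.99 to 0.05, limma adjusted p = 0.9994). Cardiomyocyte markers were lower in the same contrast for 9 of 10 genes (median log2 difference -0.29), and their part in the Tuba4a values was not tested. In mdx:Utrn+/-, PB1046 libraries had 623, 518 and 645 TPM and saline libraries 447, 592 and 437 TPM. Here the groups overlapped and the log2 difference was 0.11 (interval -0.41 to 0.63). The difference of the PB1046 effect between genotypes was 0.58 (interval -0.15 to 1.31, limma adjusted p = 0.9995), which does not show that the responses differed.

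Tubb6 had 25.7, 33.6 and 32.2 TPM in mdx PB1046 libraries 1 to 3, against 22.2, 24.9 and 16.1 TPM in mdx saline. Every PB1046 library was higher, on both scales, and the log2 difference was 0.38 (interval -0.22 to 0.98, limma adjusted p = 0.9994). In mdx:Utrn+/-, Tubb6 had 23.7, 23.5 and 20.9 TPM with PB1046 and 32.8, 28.3 and 14.6 TPM with saline, a log2 difference of -0.24 (interval -0.84 to 0.36). The saline group was spread on both sides of the PB1046 group, and its library 3 was the lowest of all 12. Without that library the PB1046 difference in mdx:Utrn+/- was -0.59 (limma adjusted p = 0.544), and without saline replicate 1 it was -0.01. Without saline replicate 3 the genotype difference under saline was 0.79 (limma adjusted p = 0.218), against 0.43 with it (adjusted p = 0.854). The difference of the PB1046 effect between genotypes was -0.62 (interval -1.47 to 0.24, limma adjusted p = 0.9995), and -0.37 with the ribosomal RNA transcript Rn45s as a term in the fit, under which the difference for PB1046 in mdx was 0.19. Rn45s had 11570 to 25860 TPM in mdx PB1046 and 1039 to 10400 TPM in mdx saline. Of the 5 libraries highest in Tubb6 by deposited TPM, 4 were among the 5 highest in fibroblast markers and 4 among the 5 highest in cell cycle markers. The number was 3 for macrophage and 3 for smooth muscle and pericyte markers, 2 for endothelial and 2 for Schwann cell markers, and 1 for cardiomyocyte markers. With PB1046 in mdx, 9 of the 10 fibroblast markers were higher (median log2 difference 0.49), as were 8 of the 9 smooth muscle and pericyte markers (0.46) and 4 of the 10 cell cycle markers (-0.10). Fibroblast markers summed to 557 to 1092 TPM in mdx PB1046 and 246 to 927 TPM in mdx saline, and smooth muscle and pericyte markers to 207 to 410 TPM in mdx PB1046 and 154 to 227 TPM in mdx saline. Cell cycle markers summed to 17.5 to 22.7 TPM in mdx PB1046 and 12.8 to 29.2 TPM in mdx saline. The part of these cells in the Tubb6 values was not tested.

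Counted over all 10 genes, few groups were free of overlap in deposited TPM. For PB1046 against saline in mdx, Tubb6 and Ttl were higher in every PB1046 library and Tuba4a lower, where 6.56% of all tested genes were so separated upwards and 2.06% downwards. For PB1046 against saline in mdx:Utrn+/- none of the 10 was separated (6.2% of all genes in either direction). For mdx:Utrn+/- against mdx, Tubb4b was higher (0.922% of all genes) and Tubb6 lower (6.33%) under PB1046, and Tuba4a, Vash1 and Map4 were lower under saline (15.1%). After scaling, the separated genes were Tubb6 higher (4.19%) and Tuba4a and Tubb4b lower (4.14%) for PB1046 in mdx, and Tubb4b higher (5.15%) and Vash1 lower (4.32%) for genotype under saline, with none in mdx:Utrn+/- (5.79% of all genes in either direction) or for genotype under PB1046 (also 5.79%). In direction alone, 6 of the 10 genes were higher and 4 lower with PB1046 in mdx:Utrn+/- (median log2 difference 0.08), and 8 higher and 2 lower in mdx (0.19). For genotype, 3 were higher and 7 lower under PB1046 (-0.06), and 5 and 5 under saline (0.04). The medians over all tested genes lay within 0.01 of 0 in these 4 contrasts. Contrasts that share a group are not independent of each other.

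**Figure D3:**
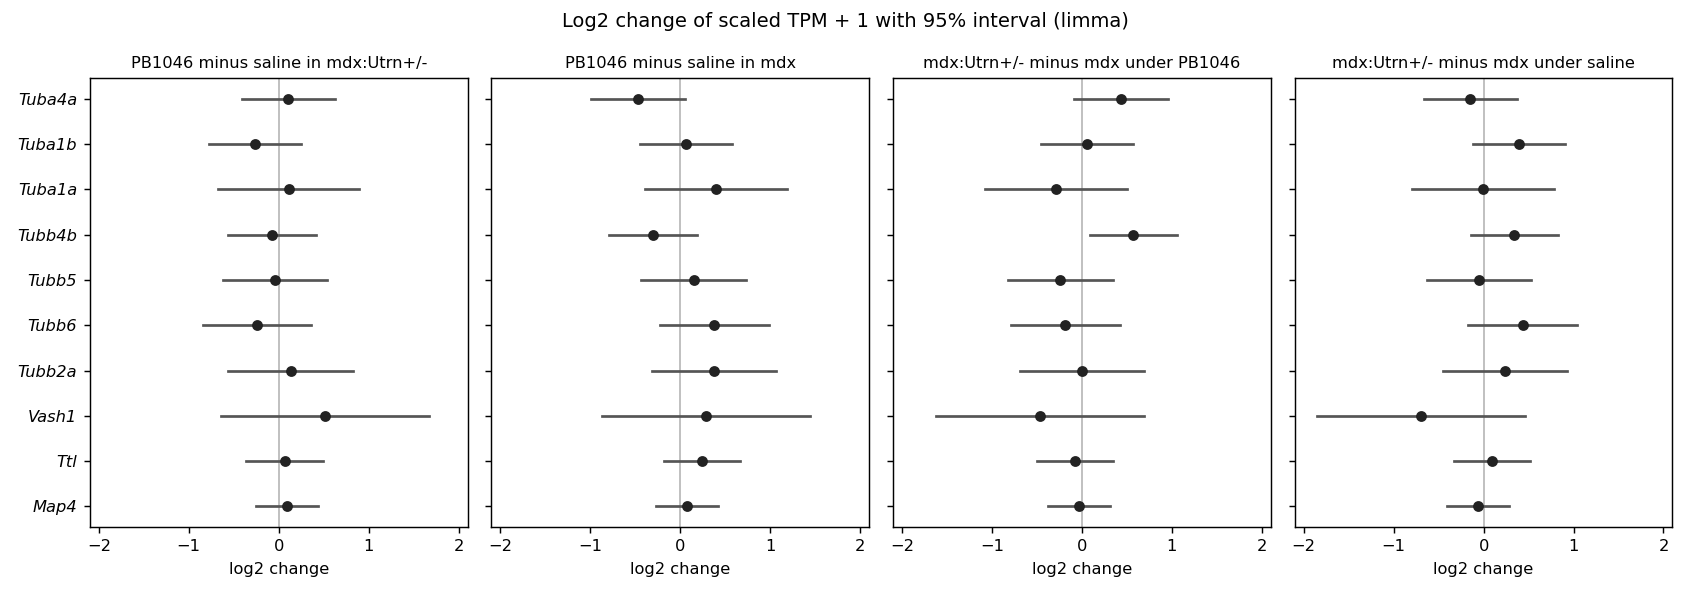
Log2 difference of scaled TPM + 1 with its 95% interval from limma (horizontal axes) for the 10 genes (rows) in the 4 contrasts named above the panels. All intervals include 0 but that of Tubb4b for mdx:Utrn+/- minus mdx under PB1046, 0.09 to 1.06.

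Vash1 varied most from library to library. It had 4.18, 23.9 and 8.88 TPM in mdx:Utrn+/- PB1046 libraries 1 to 3, 5.30, 6.36 and 5.73 in mdx:Utrn+/- saline, 4.81, 30.5 and 27.2 in mdx PB1046, and 8.02, 14.6 and 13.8 in mdx saline. The highest library was 7.31-fold above the lowest, and libraries of a PB1046 group stood at both ends of the range. Its coefficient of variation over the 12 libraries was 73.7%, more than that of 94.7% of the tested genes, whose median was 28.8%. The log2 difference for PB1046 against saline was 0.52 (interval -0.64 to 1.67) in mdx:Utrn+/- and 0.28 (interval -0.87 to 1.44) in mdx. Single libraries moved both values. In mdx:Utrn+/- the difference was 0.06 without PB1046 replicate 2 and 0.96 without PB1046 replicate 1. In mdx it was 0.93 without PB1046 replicate 1, -0.15 without PB1046 replicate 2, -0.05 without PB1046 replicate 3 and -0.01 without saline replicate 1, and its sign thus depended on which libraries were kept. Under saline the log2 difference of mdx:Utrn+/- minus mdx was -0.70 (interval -1.85 to 0.46, limma adjusted p = 0.854), and all 3 mdx:Utrn+/- libraries were lower. Endothelial markers were lower for 12 of 12 genes in that contrast (median log2 difference -0.71) and higher for 12 of 12 with PB1046 in mdx:Utrn+/- (0.59). With an endothelial marker score as a term in the fit, the Vash1 difference was -0.02 for genotype under saline and -0.09 for PB1046 in mdx:Utrn+/-, where the sign changed. It stayed at 0.28 for PB1046 in mdx, a value that the term could hardly move, since the mean score hardly differed between these groups. The scores were -0.91, 0.39 and 1.1 in mdx PB1046 libraries 1 to 3 and -0.35, 0.3 and 0.64 in mdx saline. The same term also moved Tubb2a, Tuba1a and Tubb5, with values given at the end.

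Vash1 encodes a protein first known as an angiogenesis inhibitor of endothelial cells. Its level went with endothelial marker transcripts, though not with these alone. The 12 markers, among them Pecam1, Cdh5 and Egfl7, summed to 1797 TPM in mdx PB1046 library 3, 1363 in mdx:Utrn+/- PB1046 library 2, 1055 in mdx PB1046 library 2, 979 in mdx saline library 3 and 852 in mdx saline library 2. The other 7 libraries had 284 to 506 TPM. Vash1 had 13.8 to 30.5 TPM in those 5 libraries and 4.18 to 8.88 TPM in the other 7, with no overlap. Tuba1a, with 71.8 to 168 against 41.7 to 70.1 TPM, and Map4, with 82.6 to 121.5 against 62.0 to 81.8 TPM, also separated. Tubb5 (60.4 to 122 against 42.3 to 63.1 TPM) and Tubb2a (15.5 to 43.4 against 11.9 to 22.1 TPM) overlapped in part. Tubb4b overlapped fully, with 296 to 330.4 TPM in the 5 libraries and 275 to 417 TPM in the others. The share of all tested genes that separate in this way was not counted. The axis along which the tested genes varied most (the first principal component, 30.8% of the variance) divided the libraries likewise. The 5 libraries had values of 22.7 to 34.75 on it, and the other 7 had -28.24 to -4.5. The same 5 were highest in Schwann cell markers (9.33 to 14.9 against 4.40 to 9.23 TPM). Of them, 4 were among the 5 highest in smooth muscle and pericyte markers. Cardiomyocyte markers overlapped in deposited TPM, with sums of 93030 to 124300 in the 5 and 113700 to 129300 in the others. After scaling they did not overlap: their scores, mean scaled log2 levels relative to all 12 libraries, were -0.67 to -0.03 in the 5 and 0.04 to 0.32 in the others. Which of these cells the Vash1 levels went with was not tested.

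Scaling changed this picture for Tuba1a and Map4 but not for Vash1. The trimmed-mean factor, by which TPM were divided to set the libraries level, was 1.00 to 1.28 in the 5 libraries high in endothelial markers and 0.836 to 1.0 in the other 7. After division Vash1 was 13.6 to 24.3 in the 5 and 5.0 to 9.20 in the 7, still without overlap. Tuba1a (71.8 to 131 against 44.9 to 81.2) and Map4 (78.7 to 96.9 against 72.7 to 87.4) then overlapped. The order of steadiness also changed. As deposited, Tubb4b and Tuba4a varied least, with coefficients of variation of 13.2% and 14.4%, against 24.0% and 20.3% after scaling. Map4 had 20.9% as deposited and 7.83% after scaling, below all but 0.414% of the tested genes, and Vash1 remained the most variable of the 10 at 58.7%. How much of any of these levels came from endothelial or other cells was not tested.

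**Figure D4:**
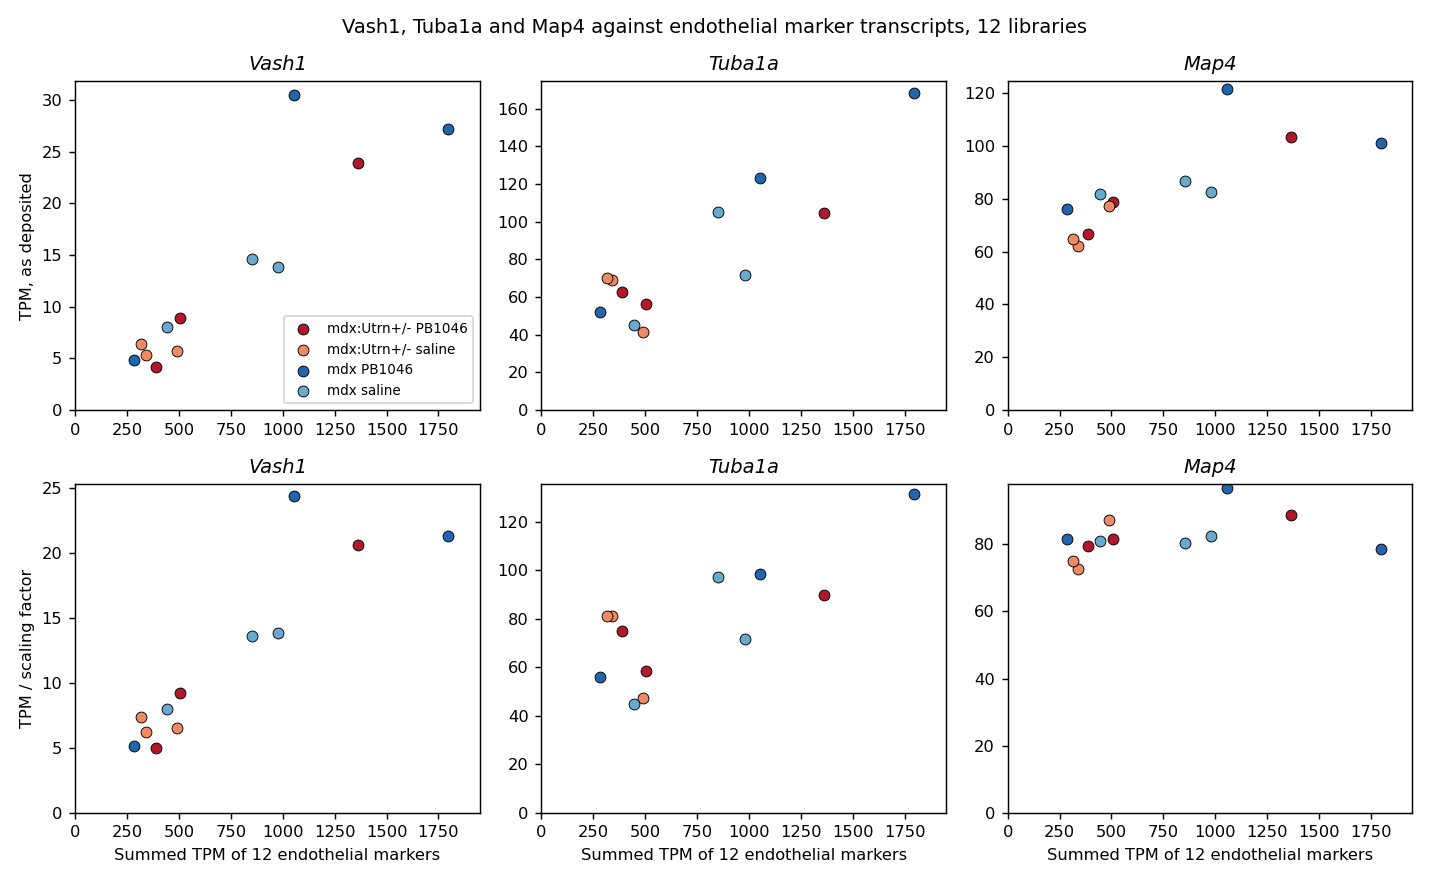
Level of Vash1, Tuba1a and Map4 (vertical axes, from 0; upper row TPM as deposited, lower row TPM divided by the scaling factor) against the summed TPM of 12 endothelial markers (horizontal axes) in the 12 libraries, coloured by group. The 5 libraries with 852 to 1797 TPM are also the 5 highest in Vash1 on both scales, and in Tuba1a and Map4 on the deposited scale only.

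Vash1 and Ttl act in opposite directions on the terminal tyrosine, and their ratio within a library does not depend on scaling. The log2 ratio of Vash1 to Ttl was -1.53, 0.50 and -0.46 in mdx:Utrn+/- PB1046 libraries 1 to 3 and -1.28, -1.05 and -0.62 in mdx:Utrn+/- saline. It was -1.51, 0.47 and 0.78 in mdx PB1046, and -0.54, 0.19 and 0.01 in mdx saline. The mean was -0.50 ± 1.0 in mdx:Utrn+/- PB1046, -0.98 ± 0.34 in mdx:Utrn+/- saline, -0.09 ± 1.24 in mdx PB1046 and -0.11 ± 0.38 in mdx saline (SD, n = 3 each). Within genotypes the PB1046 and saline values overlapped, as did the genotypes under PB1046. Under saline the 3 mdx:Utrn+/- values were below the 3 mdx values, and no test was run on the ratio. The 5 libraries with a ratio above 0 were the 5 highest in endothelial markers and in Schwann cell markers. Ttl alone had 12.0, 17.0 and 12.2 TPM in mdx:Utrn+/- PB1046, 12.9, 13.2 and 8.82 in mdx:Utrn+/- saline, 13.7, 22.0 and 15.9 in mdx PB1046 and 11.6, 12.8 and 13.7 in mdx saline. The mdx PB1046 libraries lay above the mdx saline libraries by a narrow margin, and scaled values overlapped (log2 difference 0.24, interval -0.18 to 0.67).

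Other genes that act on tubulin give the setting of these enzymes. Vash2, the second vasohibin, averaged 0.211 TPM on 1 to 17 reads, while Ccdc23, the table's symbol for the vasohibin partner Svbp, averaged 31.7 TPM. The deacetylase gene Sirt2 averaged 52.2 TPM, the polyglutamylase subunit gene Ttll1 53.9 TPM and Agtpbp1, whose product shortens polyglutamate chains, 36 TPM. The tubulin acetyltransferase gene Atat1 averaged 3.09 TPM and the deacetylase gene Hdac6 11.6 TPM. Of 14 tested genes for other tubulin-modifying enzymes, 0 passed the threshold in any contrast, with 7 higher and 7 lower for PB1046 in mdx:Utrn+/- and 5 higher and 9 lower in mdx.

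Among 9 tested genes for other tubulins, 0 passed. Tuba1c, which shares most of its sequence with Tuba1b, had 32.3 ± 10.8 TPM in mdx:Utrn+/- saline and 18.5 ± 3.34 TPM in mdx saline, with a log2 difference of 0.98 (interval 0.25 to 1.70, limma adjusted p = 0.854). Tuba1b had 145, 142 and 90.8 TPM in mdx:Utrn+/- saline and 128, 120.4 and 89.5 TPM in mdx saline, a log2 difference of 0.39 (interval -0.12 to 0.90). In both genotypes library 3 of the saline group was the lowest in Tuba1b. Tuba8 averaged 276 ± 45.1 TPM in mdx:Utrn+/- PB1046 and 216 ± 36 TPM in mdx PB1046, with a log2 difference of 0.58 (interval -0.01 to 1.17, limma adjusted p = 1). Tubg1, the nucleating γ-tubulin, averaged 26.8 ± 1.46 TPM in mdx:Utrn+/- PB1046, 27.2 ± 7.32 in mdx:Utrn+/- saline, 25.1 ± 2.33 in mdx PB1046 and 28.4 ± 3.48 in mdx saline (SD, n = 3 each).

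Further genes of microtubules showed no called change, 0 in each list and contrast. Of 22 genes for tubulin folding and for the decay of tubulin mRNA, among them the prefoldin gene Pfdn5 and the chaperonin genes Cct4 and Cct5, 11 were higher and 11 lower with PB1046 in mdx:Utrn+/- (median log2 difference 0.01), and 3 were higher and 19 lower in mdx (-0.12). Of 13 nucleation genes, 11 were higher and 2 lower with PB1046 in mdx:Utrn+/- (0.09), and 3 higher and 10 lower in mdx (-0.10). Of 24 tested genes for other microtubule-associated proteins, with Map7d1, Clip1 and Clasp1 the most abundant, 15 were higher in mdx:Utrn+/- (0.03) and 16 in mdx (0.10). Of 23 motor genes, led by Dynll2, Kif1c and Dctn2, 15 were higher in mdx:Utrn+/- (0.07) and 12 in mdx (0.00). Of 5 tested severing genes, 3 were higher in mdx:Utrn+/- (0.17) and 2 in mdx (-0.04).

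The 7 genes of the NADPH oxidase 2 complex, the enzyme coupled to microtubules under stretch, are given beside macrophage markers. With PB1046, 1 of 7 was higher in mdx:Utrn+/- (median log2 difference -0.52) and 7 of 7 in mdx (0.35), and 0 passed the threshold. Cyba, which encodes a membrane subunit of the complex, had 76.4 ± 1.03 TPM in mdx:Utrn+/- PB1046, 105 ± 54.2 in mdx:Utrn+/- saline, 108 ± 40.3 in mdx PB1046 and 82.0 ± 21.8 in mdx saline (SD, n = 3 each). Of 12 macrophage markers, 1 was higher in mdx:Utrn+/- (-0.49) and 12 in mdx (0.43). Their sum was 174 to 416 TPM in mdx:Utrn+/- PB1046, 163 to 867 in mdx:Utrn+/- saline, 302 to 874 in mdx PB1046 and 124 to 692 in mdx saline. The complex is abundant in phagocytes, and the part of macrophages in these values was not tested.

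The genes whose log2 levels were most like each of the 10 over the 12 libraries are given as a description, from 6399 genes of at least 10 TPM. Vash1 was most like Nes (Pearson r 0.968), Tmem204 and Lgals9. Tuba1a was most like Rarres2 (0.967), Lasp1 and Spef1, and Map4 most like Ppfibp1 (0.959), Zmynd11 and Senp6. Tubb5 had Shisa5 (0.977), Clic1 and Dab2 nearest, and Tubb2a had Nelfb (0.943), Zyx and Tinagl1. For Tubb6, Calm3 (0.93) and Msmo1 were among the nearest. Tuba4a had Tubgcp2 (0.933), a gene of the nucleation complex, Zc3h8 and Cmss1, and Tubb4b had Guk1 (0.924) and the mitochondrial ribosome genes Mrpl46 and Mrpl43. Tuba1b was nearest to Alyref (0.91), Samd1 and Fbl, and Ttl to Efr3a (0.933), Prkar2a and Hif1an. These libraries share differences in depth and in the cells they hold.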

How the data were processed

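Poly-A RNA of isolated cardiomyocytes was sequenced in 12 libraries, from 1.0 µg of RNA with a RIN of at least 8 in a stranded kit, per the labels. The deposited table (18530 genes, mm10) is named raw counts but holds TPM, since each library sums to 1000000. Per the file headers it also gives the authors' 6 group comparisons: log2 fold change, likelihood ratio as a score, p-value and false discovery rate. The authors' fold changes ran opposite to the group order in their names (r 0.993 to 0.9986 with TPM differences that way round) and were reversed here. The submitters' processing notes name edgeR; no source used here names the aligner or counter. Steps of the deposited TPM gave whole reads (tolerance 0.1) for 100% of genes, which served depth and limma-voom.

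TPM were divided by trimmed-mean factors (0.836 to 1.28). The log2(TPM + 1) of 12798 genes, those reaching 1 TPM in 3 or more libraries, was fitted with limma 3.58.1 in R 4.3.3 (trend, robust, a mean per group, 8 residual degrees of freedom). There were 7 contrasts, with Benjamini-Hochberg adjustment over all genes and a threshold of 0.05. A log2 difference understates the change of low genes. The fit was tested on simulated data. Members and lists were chosen with earlier results of these data known. Named genes are the 10 members, the 3 most abundant of each list, Utrn, and for likeness the 3 with the highest r, of which 1 is not reported here. Vash2, Ccdc23, Atat1, Hdac6, Tuba3b, the minor β-tubulins, Pecam1 and Cdh5 were added for their roles. Tuba3a, Tubal3, Matcap1, Matcap2 and Dynlt1 were not analysed here. Alternatives were other pseudocounts (0.5, 0.1), filters and scalings, a replicate block, limma-voom, marker or ribosomal RNA terms, and leaving out each library.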

Additional observations from a re-analysis of the deposited data

How the results depend on the processing

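No member passed the threshold under any of 22 alternative settings, and the count of called genes stayed at 0 in 6 of the 7 contrasts under all of them. For the difference of the PB1046 effect between genotypes, leaving out each library in turn gave 0 to 1 called genes, with 1 (adjusted p = 0.0324) without mdx:Utrn+/- saline replicate 3. A value was counted as turned round where its sign changed and its reported size exceeded its standard error: this happened to 1 of 1540 member values, Tuba1b for mdx:Utrn+/- minus mdx averaged over treatments, at -0.01 with no scaling factor (SE 0.18) against 0.23 with it. A further 94 sign changes concerned reported values within 1 standard error of 0, as 47 of the 70 member values were. Such values are among the 1540 but could not be counted as turned round under this rule. With no scaling factor the median log2 difference over all tested genes shifted to 0.15 for PB1046 in mdx:Utrn+/-, 0.14 in mdx, and -0.20 for genotype with PB1046 and with saline, so the Tuba1b value moved with all genes. In that setting Tubb4b was 0.35 for genotype under PB1046 and Tuba4a -0.32 for PB1046 in mdx. The replicate block, for numbers that pair samples in the labels only by a shared number (5 of 18 same-number pairs had a correlation over 0.1, and 3 of 12 libraries correlated best with their own number), gave 0 called genes in each contrast. Every group holds each replicate number, so the block cannot change a log2 difference and bears only on its spread.

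With only the members in the denominator, Tuba4a held 75.6% of α-tubulin TPM in mdx:Utrn+/- PB1046, 72.6% in mdx:Utrn+/- saline, 68.1% in mdx PB1046 and 77.5% in mdx saline. Tuba1b held 14.8% in mdx:Utrn+/- PB1046, 18.5% in mdx:Utrn+/- saline, 17.3% in mdx PB1046 and 13.7% in mdx saline. Tuba1a held 9.61% in mdx:Utrn+/- PB1046, 8.84% in mdx:Utrn+/- saline, 14.6% in mdx PB1046 and 8.87% in mdx saline. This follows from leaving Tuba8, Tuba1c and Tuba3b out. Single libraries moved some differences by over 1.5 times. Those of Tubb6 and Vash1 for PB1046 stand beside their values above. Without mdx PB1046 replicate 1, Tubb2a was 0.80 for PB1046 in mdx (0.37 with it) and Vash1 -1.11 for genotype under PB1046 (-0.46 with it). Other single libraries brought these near 0: Tubb2a was 0.07 without mdx PB1046 replicate 3, and Vash1 -0.03 without mdx:Utrn+/- PB1046 replicate 1. Tuba1a for PB1046 in mdx, 0.39 with all libraries, was 0.73 without mdx PB1046 replicate 1 and 0.04 without mdx saline replicate 1. Without mdx:Utrn+/- PB1046 replicate 2, Tuba4a was 0.66 for genotype under PB1046 (0.43 with it). With the endothelial marker score as a term, genotype under saline was 0.59 for Tubb2a (0.24 without the term), 0.3 for Tuba1a (-0.01) and 0.18 for Tubb5 (-0.05). PB1046 in mdx:Utrn+/- was then -0.18 for Tubb2a (0.13 without the term), -0.16 for Tuba1a (0.11) and -0.25 for Tubb5 (-0.04). For PB1046 in mdx:Utrn+/-, 95% intervals ran to -0.64 to 1.67 for Vash1 and -0.25 to 0.44 for Map4.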
